A study of Mus musculus with 8 samples.

Results

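The 9 genes described here code for transcription factors that act in macrophages and related myeloid cells: *Maf*, the MiT/TFE genes *Mitf*, *Tfeb*, *Tfec* and *Tfe3*, the C/EBP genes *Cebpa* and *Cebpb*, and the basic helix-loop-helix repressor genes *Bhlhe40* and *Bhlhe41*. They come from a list of symbols, were found by Ensembl ID among the 47937 genes of the count tables, and all 9 passed the filter on low counts in every comparison, *Bhlhe41* with LPS through the 3xGrk-/- libraries only. The cells were bone marrow-derived dendritic cells (BMDCs), which grow out of mouse bone marrow cultured with the cytokine GM-CSF and which hold dendritic cells and macrophages side by side. Cells of wildtype (WT) mice were compared with cells deficient in the G-protein coupled receptor kinases GRK2, GRK3 and GRK6 (3xGrk-/-). The knockout mice carried floxed alleles of *Grk2* and *Grk6* (Grk2 fl/fl, Grk6 fl/fl), the Grk3-/- genotype and Vav-iCre, a Cre recombinase under a promoter that is active from early blood cell precursors on, and WT controls carried no Cre. Donor mice were adults older than 8 weeks, matched for age and sex. Cells were cultured for 8 days and then left unstimulated or exposed for 1 day to 20 ng/ml LPS, a bacterial cell wall component that makes dendritic cells mature. Each of the 4 groups had 2 libraries with 4713305 to 6933358 counts each. The methods describe technical replicates, so the p-values below rest on the spread between these libraries only and may not cover the spread between mice or cultures. The test shares this spread in part over genes. For a gene whose own 2 libraries lie further apart, such as *Cebpb*, it can understate that gene's spread.

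MiT/TFE proteins bind E-box sequences as dimers. TFEB, TFE3 and MITF switch on lysosome and autophagy genes through a motif known as CLEAR, and the nutrient-sensing kinase complex mTORC1 on the lysosome holds them in the cytoplasm. TFEC is found mainly in macrophages, and MITF is best known for melanocytes, mast cells and osteoclasts. c-MAF, the product of *Maf*, is linked to *Il10* and complement C1q expression in macrophages. C/EBPα is needed for early myeloid commitment, while C/EBPβ is induced in activated macrophages. BHLHE40 and BHLHE41 bind E-boxes as repressors, act on the circadian clock and support the self-renewal of tissue macrophages.

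The E-box is the sequence through which 6 of the 9 factors act, so it was searched in RefSeq promoter sequences (GRCm38.p6, 250 bases before to 50 bases after each start site, both strands). The E-box CACGTG stood in 8.09% of the 27025 genes, its longer CLEAR-type form GTCACGTG, which contains CACGTG, in 2.55%, and the C/EBP palindrome TTGCGCAA in 0.207%. Sequences were matched for 7 of the 9 factor genes, all but *Maf* and *Bhlhe40*. *Bhlhe41* alone among these 7 held CACGTG, and none held either of the other motifs. Of the 47 lysosome and autophagy genes listed as CLEAR genes, 34 were matched, and 13 of these, or 38.2%, held GTCACGTG. The windows below are shown because they belong to the factor gene with an E-box, to the lysosome genes with this motif that lay among the most changed, to a MAF partner gene and to the 1 listed gene with the C/EBP palindrome. Each is written 5′ to 3′ on the strand of its gene, and capitals mark the motif or its reverse complement.
Bhlhe41, chr6:145865557-145865584, minus strand: ggtacgttccgCACGTGagctgggtgct
Ctsd, chr7:142387907-142387936, minus strand: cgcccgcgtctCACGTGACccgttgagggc
Gla, chrX:134601183-134601212, minus strand: gtgagatctcgGTCACGTGagcaactctcg
Clcn7, chr17:25133363-25133392, plus strand: ctccgtcgtcaGTCACGTGggcaccgatga
Mafg, chr11:120633570-120633599, minus strand: tgaatggaaccCACGTGACcaaacatcatg
Ptgs2, chr1:150099951-150099980, plus strand: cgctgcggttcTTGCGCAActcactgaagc
A match describes letters in these windows and was not tested as a binding site.

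All libraries carried genes that mark dendritic cells, such as *H2-Ab1* and *Zbtb46*, while *Cd209a* was near 0 outside unstimulated WT cells. The targeted kinase genes were lower in 3xGrk-/- cells, with log2 fold changes without and with LPS of -1.11 and -1.89 for *Grk2*, -1.19 and -1.54 for *Grk6*, and -0.36 and -0.42 for *Grk3*. Summed over 10 macrophage marker genes, CPM (counts scaled to library size, with the TMM method) were 2201 to 2224 in unstimulated WT, 8896 to 8935 in unstimulated 3xGrk-/-, 711 to 723 in LPS-stimulated WT and 7462 to 7570 in LPS-stimulated 3xGrk-/- libraries. *Lyz2*, the lysozyme gene, made up 39.6% to 79.7% of this sum, and *Lyz2*, *C1qa* and *Mrc1* are also members of lists described further on. Over the other 7 markers the sum was 788 to 811 CPM in unstimulated WT, 1739 to 1801 in unstimulated 3xGrk-/-, 427 in both LPS-stimulated WT and 2875 to 2929 in LPS-stimulated 3xGrk-/- libraries. The sum over 10 dendritic cell markers was 6759 to 6807, 4175 to 4239, 6074 to 6435 and 5042 to 5162 CPM in the same order. *H2-Ab1* and *Ccr7* made up much of it. In this order *H2-Ab1* had means of 3526, 1105, 1569 and 1176 CPM, and *Ccr7* of 1224, 1450, 3780 and 3034 CPM. Eosinophil markers summed to 913 to 985 CPM in WT and 36.5 to 57.9 CPM in 3xGrk-/- libraries. Neutrophil markers summed to 721 to 766 CPM in unstimulated WT against 531 to 546 CPM in unstimulated 3xGrk-/- libraries, and to 340 to 396 against 188 to 205 CPM with LPS. Over all genes tested, 22.1% were higher and 22.7% lower in 3xGrk-/- cells without LPS, and 24.7% and 24.0% with LPS. Of the macrophage markers, 8 were higher and 2 lower without LPS, and 10 of 10 were higher with LPS. *Mrc1* passed the filter on low counts with LPS through the 3xGrk-/- libraries only, which leaves 9 of 9 higher. Of the dendritic cell markers, 3 were higher and 6 lower of 10 tested without LPS, and 2 higher and 7 lower of 9 tested with LPS. The shares called higher, 30% and 22.2%, were near those of all genes. Without *Cd209a*, which passed the filter without LPS through the WT libraries only, 3 were higher and 5 lower of 9. *Itgax*, the gene of CD11c, and *Flt3*, a cytokine receptor gene of dendritic cells, were the dendritic cell markers called higher with LPS (log2 2.34 and 1.35). Of the neutrophil markers none was higher, and 6 of 10 without and 7 of 9 with LPS were lower. *Mpo* at both stimulations and *Elane* with LPS passed the filter through the WT libraries only, which leaves 5 of 9 and 6 of 7 lower. The part of these cell type markers in the results below was not tested, and in bulk RNA a change in the number of cells of a type cannot be told apart from a change in RNA per cell.

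The first comparison asked how the factors differed between genotypes. In edgeR (quasi-likelihood test, p adjusted over all genes by Benjamini and Hochberg), 7 of the 9 were higher in unstimulated 3xGrk-/- BMDCs, *Cebpa* was lower and *Tfeb* did not pass the threshold of 0.05. Of the 12000 genes tested, 22.1% were higher and 22.7% lower. After LPS, 8 of the 9 were higher and none was lower, neither by edgeR nor by DESeq2 or at an unadjusted p under 0.05 (0 of 9 in each), with *Bhlhe40* the factor that did not pass. The background there was 24.7% higher and 24.0% lower of 11830 genes. The median log2 fold change of the 9 factors was 1.25 without and 2.0 with LPS, against -0.0017 and -0.0066 over all genes tested. The factors and the lists below were chosen with earlier results of these data known. Their shares and medians beside those of all genes are thus a description and no independent test. Over the 8 factors that passed the filter in both genotypes with LPS, 7 were higher and the median was 1.52. A gene that passes through 1 genotype alone was kept for its level there, which favours a call though not every such gene was called. The lists below are therefore also counted without such genes where there are any. When every gene was given a biological coefficient of variation of 0.4, far above the 0.0306 and 0.0573 estimated from these libraries, *Maf*, *Cebpb* and *Bhlhe41* still passed without LPS, and *Maf*, *Mitf*, *Tfec*, *Cebpb* and *Bhlhe41* with LPS, where 1.62% and 4.81% of all genes were called higher.

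**Figure D1:**
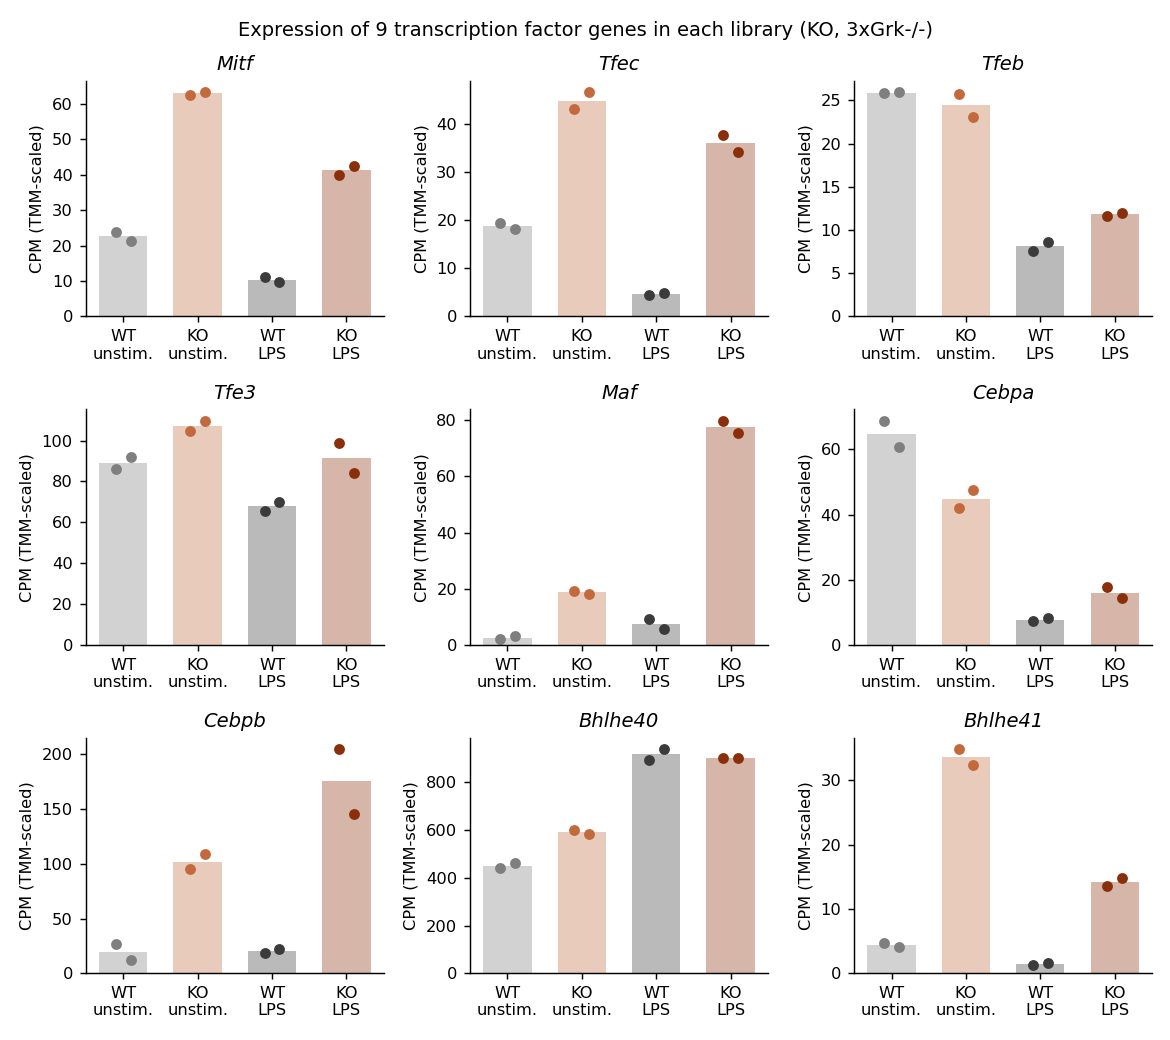
Expression of the 9 factor genes in CPM (linear axis from 0), with points for the 2 libraries of each group and bars for their mean. *Maf*, *Mitf*, *Tfec*, *Cebpb* and *Bhlhe41* stand higher in 3xGrk-/- (KO) than in WT libraries at both stimulations without overlap, and *Maf* reaches 75.4 to 79.8 CPM in LPS-stimulated 3xGrk-/- cells.

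*Mitf* (ENSMUSG00000035158, chr6:97807052-98021349, plus strand of GRCm38) codes for the family member with the best known role in osteoclasts. It was at 23.9 and 21.3 CPM in unstimulated WT, 62.5 and 63.2 in unstimulated 3xGrk-/-, 11.1 and 9.59 in LPS-stimulated WT, and 39.99 and 42.3 in LPS-stimulated 3xGrk-/- libraries. The genotypes did not overlap at either stimulation, and the 3xGrk-/- libraries with LPS stayed above the WT libraries without it. The difference was 2.80-fold (log2 1.49, SE 0.102, adjusted p = 2.19e-46 in edgeR's test) without and 4.0-fold (log2 2.0, SE 0.141, adjusted p = 1.41e-10) with LPS.

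*Tfec* (ENSMUSG00000029553, chr6:16833373-16898441, minus strand), the family member of macrophages, had 19.5 and 18.2 CPM in unstimulated WT and 43.1 and 46.5 CPM in unstimulated 3xGrk-/- libraries. With LPS it had 4.35 and 4.95 CPM in WT against 37.6 and 34.2 CPM in 3xGrk-/- libraries. The lowest libraries were thus the LPS-stimulated WT ones, and no libraries of the genotypes overlapped at either stimulation. It was 2.38-fold higher (log2 1.25, SE 0.117, edgeR adjusted p = 1.24e-25) without and 7.64-fold higher (log2 2.93, SE 0.173, edgeR adjusted p = 7.40e-12) with LPS.

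*Tfeb* (ENSMUSG00000023990, chr17:47737030-47792419, plus strand), the best known regulator of the CLEAR network, was at 25.8 and 25.9 CPM in unstimulated WT and 25.7 and 23.1 CPM in unstimulated 3xGrk-/- libraries. After LPS it was at 7.62 and 8.66 CPM in WT and 11.6 and 12 CPM in 3xGrk-/- libraries. No genotype difference was called before LPS (log2 -0.08, SE 0.124, edgeR adjusted p = 0.648), and every library was lower after it. The difference after LPS was small (log2 0.53, SE 0.198, edgeR adjusted p = 0.0312). Its call was lost with library size alone as the scale (edgeR adjusted p = 0.0677), with a coefficient of variation of 0.1 (0.0654) and in DESeq2 (adjusted p = 0.227). It was also lost without WT replicate 1 or either 3xGrk-/- replicate. Leaving out 1 library at a time gave log2 values from 0.46 to 0.64.

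*Tfe3* (ENSMUSG00000000134, chrX:7762560-7775202, plus strand), a ubiquitous family member, was at 86.4 and 91.9 CPM in unstimulated WT, 104.7 and 109.7 in unstimulated 3xGrk-/-, 65.5 and 70.1 in LPS-stimulated WT, and 99.1 and 84.3 in LPS-stimulated 3xGrk-/- libraries. All 3xGrk-/- libraries lay above the WT libraries of the same stimulation, by 1.20-fold (log2 0.26, SE 0.0653, edgeR adjusted p = 0.000275) and 1.35-fold (log2 0.43, SE 0.0921, edgeR adjusted p = 0.000548). The call without LPS was lost with a coefficient of variation of 0.1 (adjusted p = 0.239).

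Per kilobase of exon the 4 MiT/TFE genes can be set against each other. Their summed level was 21.2 ± 0.0112 CPM per kilobase (SD, n = 2) in unstimulated WT and 34.0 ± 0.570 in unstimulated 3xGrk-/- cells. With LPS it was 11.3 ± 0.387 in WT and 25.0 ± 1.25 in 3xGrk-/- cells, so that the family was 1.61 times as high in 3xGrk-/- as in WT cells without LPS and 2.23 times with it. *Tfe3* made up the largest share in each group, 45.4% and 65.0% in WT cells without and with LPS and 34.0% and 39.5% in 3xGrk-/- cells. The share of *Mitf* was 17.2% and 14.8% in WT and 29.8% and 26.6% in 3xGrk-/- cells, and that of *Tfec* 15.9% and 7.38% against 23.5% and 25.6%. *Tfeb* went the other way, from 21.5% and 12.7% in WT to 12.7% and 8.34% in 3xGrk-/- cells. These shares were not tested.

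**Figure D2:**
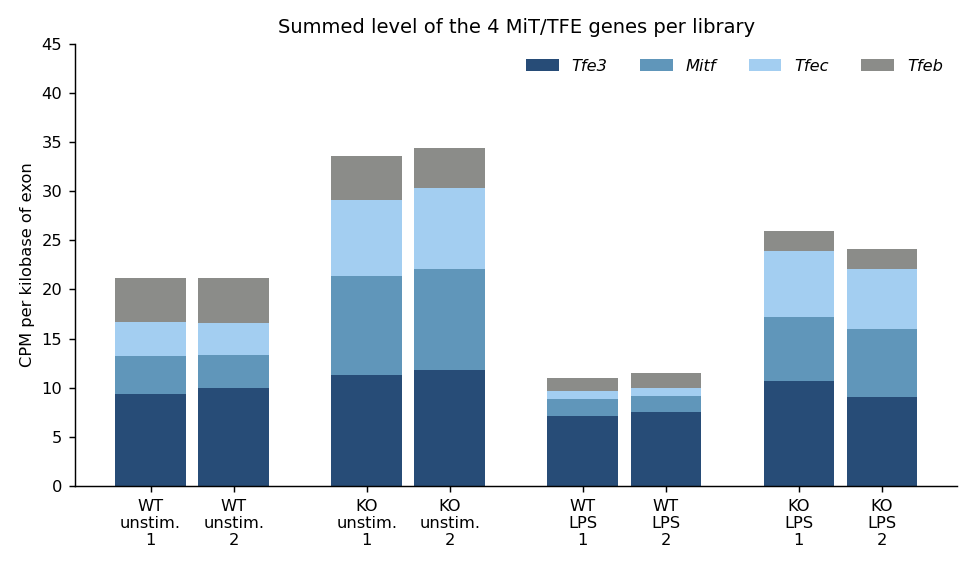
Level of the 4 MiT/TFE genes in CPM per kilobase of exon, stacked for each of the 8 libraries (1 and 2 are the replicates of a group). The stacks are lowest in LPS-stimulated WT cells (11.3 on average) and highest in unstimulated 3xGrk-/- cells (34.0), and the *Mitf* and *Tfec* layers are thicker in 3xGrk-/- (KO) than in WT libraries of the same stimulation.

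*Maf* (ENSMUSG00000055435, chr8:115682942-115707794, minus strand) was the least abundant factor per kilobase in unstimulated cells of both genotypes. It had 11 and 22 counts in unstimulated WT against 129 and 105 in unstimulated 3xGrk-/- libraries, or 2.1 and 3.08 against 19.3 and 18.2 CPM. After LPS the values were 9.07 and 5.57 CPM in WT and 79.8 and 75.4 CPM in 3xGrk-/- libraries. Every 3xGrk-/- library lay above every WT library, LPS-stimulated WT cells included. The difference was 7.0-fold (log2 2.81, SE 0.223, edgeR adjusted p = 4.27e-35) without and 10.7-fold (log2 3.43, SE 0.150, edgeR adjusted p = 4.75e-14) with LPS, and the WT value without LPS rests on few counts.

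*Cebpa* (ENSMUSG00000034957, chr7:35119293-35121928, plus strand) was the factor whose genotype difference passed the test in both directions, lower without and higher with LPS. Unstimulated WT libraries had 68.8 and 60.7 CPM and unstimulated 3xGrk-/- libraries 41.9 and 47.4 CPM, while with LPS the values were 7.26 and 8.20 CPM in WT and 17.8 and 14.3 CPM in 3xGrk-/- libraries. WT cells were thus higher before and lower after LPS, with no overlap in either case. Its log2 fold change was -0.53 (SE 0.0865, edgeR adjusted p = 5.80e-09) without and 1.04 (SE 0.194, edgeR adjusted p = 0.000134) with LPS.

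*Cebpb* (ENSMUSG00000056501, chr2:167688915-167690418, plus strand) was at 26.6 and 12.2 CPM in unstimulated WT and 95.1 and 109.1 CPM in unstimulated 3xGrk-/- libraries. With LPS it was at 18.9 and 22.3 CPM in WT and 204.7 and 145.9 CPM in 3xGrk-/- libraries. The replicates were further apart than those of the other abundant factors, yet the lowest 3xGrk-/- library was well above the highest WT library. The difference was 5.54-fold (log2 2.47, SE 0.0958, edgeR adjusted p = 9.48e-143) without LPS, where leaving out WT replicate 1 gave 3.06 and the lowest value on leaving out a library was 1.93, and 8.45-fold (log2 3.08, SE 0.138, edgeR adjusted p = 7.10e-14) with LPS. Without LPS the precision of this value depended on the tool, since the adjusted p was 5.90e-05 in DESeq2 and 0.0403 with edgeR's older quasi-likelihood method and robust estimation. *Tmem189*, which overlaps *Cebpb* on the opposite strand with 228 to 656 counts per library, was higher as well (log2 1.09 and 1.40; named after its values were seen, for this overlap), and the strand setting of the counting is not given in the sources used here. Genes overlapping *Mitf*, *Maf*, *Cebpa*, *Bhlhe40* and *Bhlhe41* on the opposite strand had at most 5 counts in any library.

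*Bhlhe40* (ENSMUSG00000030103, chr6:108660629-108666925, plus strand) was the most abundant factor per kilobase in each group. It was at 440.4 and 460.5 CPM in unstimulated WT, 598.5 and 582.4 in unstimulated 3xGrk-/-, 892.9 and 937.1 in LPS-stimulated WT, and 901.5 and 899.1 in LPS-stimulated 3xGrk-/- libraries. The genotypes were apart before LPS (1.31-fold, log2 0.39, SE 0.0389, edgeR adjusted p = 2.15e-22), and after LPS the 3xGrk-/- libraries lay between the 2 WT libraries (log2 -0.02, SE 0.0546, edgeR adjusted p = 0.744).

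*Bhlhe41* (ENSMUSG00000030256, chr6:145858243-145865558, minus strand), the paralog with the E-box shown above, was scarce in WT cells, at 4.78 and 4.06 CPM without and 1.27 and 1.55 CPM (7 and 10 counts) with LPS. In 3xGrk-/- libraries it was at 34.9 and 32.5 CPM without and 13.6 and 14.8 CPM with LPS. Both 3xGrk-/- groups lay above both WT groups. The difference was 7.69-fold (log2 2.94, SE 0.174, edgeR adjusted p = 1.78e-62) without LPS, and 9.88-fold (log2 3.31, SE 0.284, edgeR adjusted p = 3.11e-09) with it. The 3xGrk-/- libraries of *Bhlhe41* thus lay apart from WT at both stimulations, while those of *Bhlhe40* overlapped WT after LPS.

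**Figure D3:**
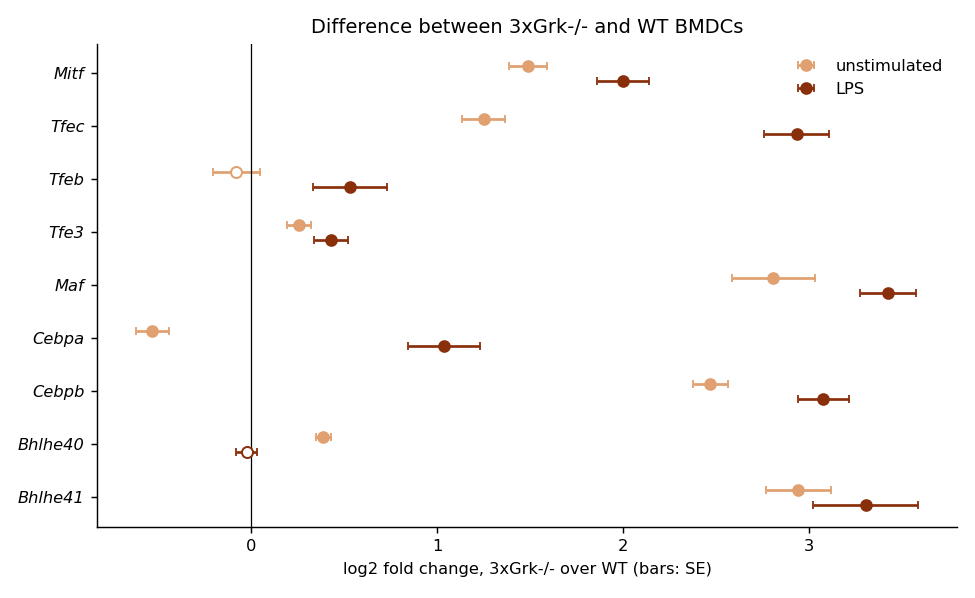
Log2 fold change between 3xGrk-/- and WT BMDCs for the 9 factors, without (light) and with LPS (dark); bars are standard errors, and open symbols did not pass an adjusted p of 0.05. *Cebpa* lies left of 0 without LPS (-0.53) and right of it with LPS (1.04), and *Tfec* moves from 1.25 to 2.93.

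The order of the factors by level per kilobase differed between the groups. In unstimulated WT cells *Bhlhe40* (95.7 CPM per kilobase) was followed by *Cebpa* (24.6), *Cebpb* (12.9), *Tfe3* (9.63), *Tfeb* (4.56), *Mitf* (3.65), *Tfec* (3.37), *Bhlhe41* (0.658) and *Maf* (0.315), with overlapping libraries for *Cebpb* and *Tfe3* and for *Mitf* and *Tfec*. In unstimulated 3xGrk-/- cells the order was *Bhlhe40* (125.5), *Cebpb* (67.9), *Cebpa* (16.9), *Tfe3* (11.6), *Mitf* (10.1), *Tfec* (8.01), *Bhlhe41* (5.01), *Tfeb* (4.31) and *Maf* (2.28), and no neighbours overlapped. In this order *Cebpb* stood above *Cebpa*, and *Mitf*, *Tfec* and *Bhlhe41* stood above *Tfeb*. With LPS the WT order was *Bhlhe40* (194.5), *Cebpb* (13.7), *Tfe3* (7.32), *Cebpa* (2.93), *Mitf* (1.67), *Tfeb* (1.44), *Maf* (0.888), *Tfec* (0.832) and *Bhlhe41* (0.210), and *Maf* and *Tfec* overlapped. In LPS-stimulated 3xGrk-/- cells it was *Bhlhe40* (191.3), *Cebpb* (116.6), *Tfe3* (9.90), *Maf* (9.42), *Mitf* (6.64), *Tfec* (6.42), *Cebpa* (6.09), *Bhlhe41* (2.11) and *Tfeb* (2.08). There *Tfe3* and *Maf*, *Mitf* and *Tfec*, *Tfec* and *Cebpa*, and *Bhlhe41* and *Tfeb* overlapped, so these neighbours did not differ beyond their spread.

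The response to LPS was compared within each genotype, in 1 fit of all 8 libraries. In WT cells *Maf* and *Bhlhe40* rose, 6 factors fell and *Cebpb* did not pass the threshold, where 29.5% of the 12541 genes tested rose and 30.8% fell. In 3xGrk-/- cells *Maf*, *Bhlhe40* and *Cebpb* rose and the same 6 factors fell, against 28.0% and 27.4% of all genes. In WT cells the log2 response was -3.05 (SE 0.141) for *Cebpa*, -2.0 (SE 0.186) for *Tfec*, -1.66 (SE 0.153) for *Tfeb*, -1.61 (SE 0.347) for *Bhlhe41*, -1.12 (SE 0.148) for *Mitf* and -0.40 (SE 0.0822) for *Tfe3*. In 3xGrk-/- cells it was -1.48 (SE 0.129) for *Cebpa*, -1.24 (SE 0.130) for *Bhlhe41*, -1.05 (SE 0.143) for *Tfeb*, -0.61 (SE 0.0942) for *Mitf*, -0.32 (SE 0.102) for *Tfec* and -0.23 (SE 0.0772) for *Tfe3*. The point estimate was nearer 0 in 3xGrk-/- cells for each of these 6 genes. The calls of *Tfec* and *Tfe3* in 3xGrk-/- cells were lost in DESeq2 (adjusted p = 0.138 and 0.0943). They were also lost with a coefficient of variation of 0.1 (edgeR adjusted p = 0.127 and 0.250). The same held without replicate 2 of unstimulated or of LPS-stimulated 3xGrk-/- cells. Leaving out 1 library at a time gave log2 responses from -0.38 to -0.25 for *Tfec* and from -0.34 to -0.11 for *Tfe3*. *Maf* rose by log2 1.42 (SE 0.289) in WT and 2.04 (SE 0.116) in 3xGrk-/- cells. For *Bhlhe40* the rise was 1.02 (SE 0.0479) in WT and 0.61 (SE 0.0473) in 3xGrk-/- cells, and for *Cebpb* it was 0.78 (SE 0.127) in 3xGrk-/- cells. DESeq2 (adjusted p = 0.117) and edgeR's older method with robust estimation (adjusted p = 0.0789) did not call this *Cebpb* response. The WT value of *Cebpb* was 0.17 (SE 0.241, edgeR adjusted p = 0.568); without WT replicate 1 of the unstimulated libraries it was 0.76 (edgeR adjusted p = 0.0111) and without replicate 2 it was -0.36. Scaling by library size alone lowered each log2 response by 0.22 in both genotypes, which left the direction of the called responses as given.

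**Figure D4:**
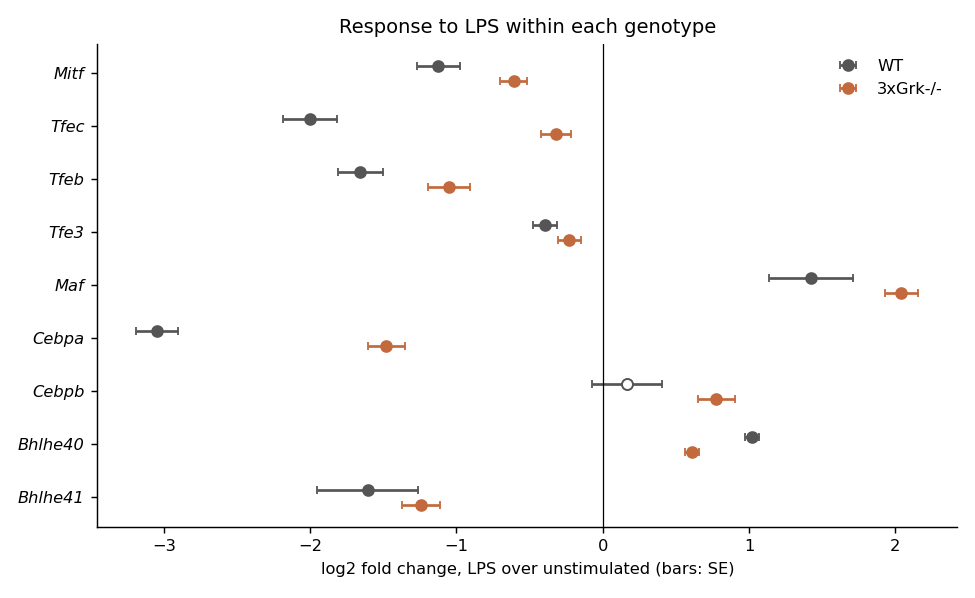
Log2 fold change between LPS-stimulated and unstimulated cells for the 9 factors in WT (grey) and 3xGrk-/- BMDCs (orange); bars are standard errors, and the open symbol (*Cebpb* in WT) did not pass an adjusted p of 0.05. *Cebpa* and *Tfec* show the widest gaps between genotypes, -3.05 against -1.48 and -2.0 against -0.32.

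Whether the genotype difference itself changed with LPS was tested as an interaction, which uses the same 8 libraries as the comparisons above. It was higher with LPS for *Tfec* (log2 1.68, SE 0.217, edgeR adjusted p = 4.26e-07), *Cebpa* (1.57, SE 0.211, adjusted p = 8.34e-07), *Tfeb* (0.61, SE 0.218, adjusted p = 0.0321) and *Mitf* (0.52, SE 0.178, adjusted p = 0.0264), and lower for *Bhlhe40* (-0.41, SE 0.0671, adjusted p = 1.56e-05). Over all genes tested 16.5% had a positive and 16.0% a negative interaction. For *Maf* (0.62, SE 0.336), *Cebpb* (0.61, SE 0.273), *Bhlhe41* (0.36, SE 0.391) and *Tfe3* (0.17, SE 0.113) no interaction was called. The calls of *Mitf* and *Tfeb* were lost in DESeq2 (adjusted p = 0.149 and 0.203). With a coefficient of variation of 0.1 those of *Mitf* (0.196), *Tfeb* (0.162) and *Bhlhe40* (0.171) were lost. *Mitf* also lost its call without replicate 1 of either unstimulated group (0.0910 for WT, 0.0551 for 3xGrk-/-) or replicate 2 of either LPS-stimulated group (0.160 for WT, 0.0806 for 3xGrk-/-). *Tfeb* lost it without replicate 2 of unstimulated WT (0.0616) or 3xGrk-/- (0.0934), replicate 1 of LPS-stimulated WT (0.108), and replicate 1 (0.0636) or 2 (0.101) of LPS-stimulated 3xGrk-/- cells. An interaction appeared for *Maf* (0.98, adjusted p = 0.0292) without replicate 1 of LPS-stimulated WT, and for *Cebpb* without replicate 2 of unstimulated WT (1.15, adjusted p = 0.00102), LPS-stimulated WT (0.74, adjusted p = 0.0208) or LPS-stimulated 3xGrk-/- cells (0.84, adjusted p = 0.00703). With all 8 libraries and no filter on low counts *Cebpb* was called as well (0.62, adjusted p = 0.000645), while *Tfeb* was not (adjusted p = 0.0535).

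Genes that act upstream of the MiT/TFE proteins were taken from a list of 28, which holds mTORC1, the Rag GTPases and Ragulator, folliculin and its partners, calcineurin and 14-3-3 proteins. In unstimulated cells 14 rose and 1 fell, with a median log2 fold change of 0.13. That was 50% and 3.57% of the list, beside 22.1% and 22.7% of all genes tested and an all-gene median of -0.0017. The higher genes included the Ragulator subunit gene *Lamtor4* (1.18), the Rag GTPase gene *Rragd* (0.54) and *Mtor* (0.50). *Ppp3ca*, a catalytic subunit of calcineurin, was lower by 0.59. Among LPS-stimulated cells 11 were higher and 5 lower in 3xGrk-/- than in WT cells, and the median was again 0.13. That was 39.3% and 17.9% of the list, beside 24.7% and 24.0% of all genes and a median of -0.0066. *Rragd* passed the filter with LPS through the 3xGrk-/- libraries only, and without it 10 of 27 were higher (median 0.11). The folliculin partner gene *Fnip2* (log2 2.65) and *Rragd* (2.55) led, followed by the amino acid sensor gene *Slc38a9* (1.20). *Fnip2* was at 24.7 and 25.2 CPM in WT against 155.2 and 158.6 CPM in 3xGrk-/- libraries after LPS. The calcineurin genes *Ppp3cb* (-0.45) and *Ppp3r1* (-0.33) and the 14-3-3 gene *Ywhag* (-0.33) were lower in 3xGrk-/- than in WT cells.

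CLEAR genes, the lysosome and autophagy targets of TFEB and TFE3, were mostly higher in 3xGrk-/- cells. Of the 47 genes listed, 32 were higher and 7 lower without LPS (median log2 0.33), and 37 were higher and 1 lower with LPS (median 0.78), against medians of -0.0017 and -0.0066 over all genes tested. These are 68.1% and 14.9% of the list without and 78.7% and 2.13% with LPS, beside 22.1% and 22.7%, and 24.7% and 24.0%, of all genes. *Ctsd*, the gene of the protease cathepsin D, was at 507.8 and 522.1 CPM in unstimulated WT and 2427 and 2387 CPM in unstimulated 3xGrk-/- libraries (log2 2.22). It was near its unstimulated level in LPS-stimulated WT libraries, at 511.8 and 531.1 CPM, and at 4171 and 4096 CPM in LPS-stimulated 3xGrk-/- libraries. In 3xGrk-/- cells the vacuolar ATPase subunit gene *Atp6v0d2* was higher by 2.25 without and 4.72 with LPS. *Gla*, the gene of alpha-galactosidase A, was higher by 1.43 and 3.13. *Ctsb*, the gene of cathepsin B, differed by 3.14 with LPS. *Ctsf* passed the filter without LPS through the WT libraries only, and without it 32 were higher and 6 lower of 46. Among the lower genes were *Ctsf* (-1.03) and *Uvrag* (-0.54) without LPS, and *Uvrag* (-0.67) was the lower gene with LPS.

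The interaction was positive for 28 and negative for 2 of the 47 CLEAR genes (median log2 0.54, against 0.0057 over all genes), where 16.5% of all genes had a positive and 16.0% a negative one. Among the 13 CLEAR genes with GTCACGTG in the promoter window, 10 were higher and 0 lower without LPS (median 0.39) and 10 higher and 0 lower with LPS (median 1.20). Among the 21 matched CLEAR genes without it, 12 were higher and 6 lower without LPS (median 0.18) and 17 higher and 1 lower with LPS (median 0.65). Over all genes, 22.1% were higher and 22.7% lower without LPS, and 24.7% and 24.0% with LPS. The set without GTCACGTG holds *Ctsf*, which passed the filter without LPS through the WT libraries only. The difference between these sets was not tested. With the coefficient of variation set to 0.4, 2 of the 47 CLEAR genes were called higher without and 6 with LPS, beside 1.62% and 4.81% of all genes.

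**Figure D5:**
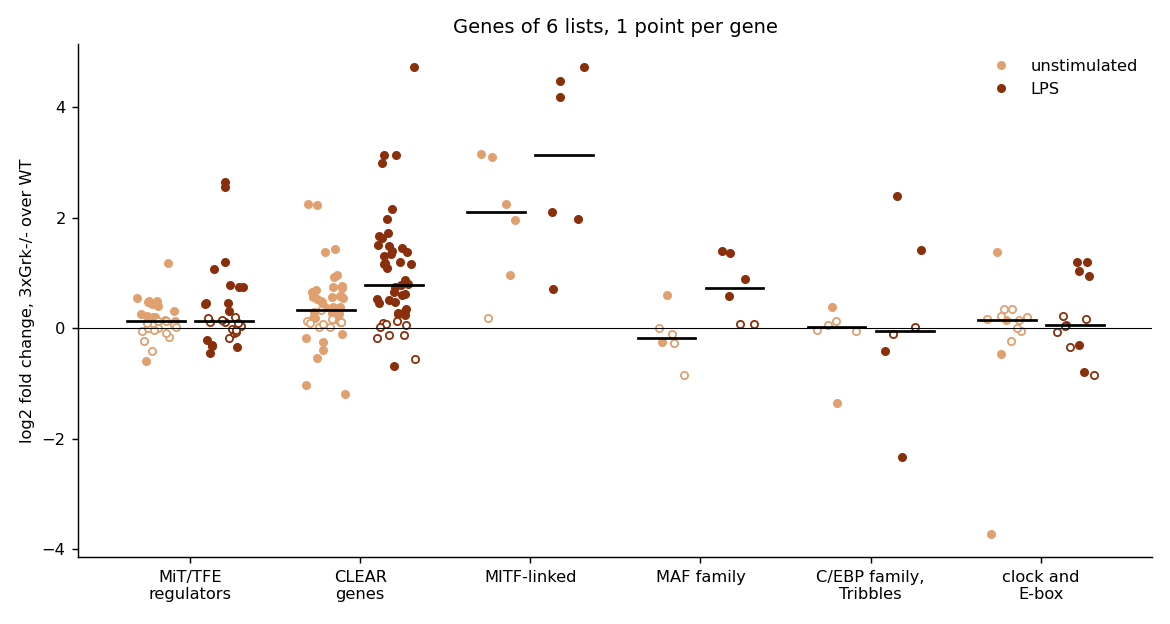
Log2 fold change between 3xGrk-/- and WT BMDCs for the tested genes of 6 lists, without (light) and with LPS (dark); each point is a gene, open points did not pass an adjusted p of 0.05, and black lines are medians. The medians of the MITF-linked genes (2.1 and 3.14) and of the CLEAR genes (0.33 and 0.78) lie above 0, and those of the C/EBP family (0.02 and -0.05) lie near it.

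Genes linked to MITF in osteoclasts and macrophages were tested for 6 of 7 listed (*Oscar* was too low), and 2 of them, *Clcn7* and *Atp6v0d2*, are CLEAR genes as well. Without LPS 5 were higher and 0 lower, and with LPS 6 were higher and 0 lower, with medians of 2.1 and 3.14 (all genes -0.0017 and -0.0066). Of all genes, 22.1% were higher and 22.7% lower without LPS and 24.7% and 24.0% with it. *Gpnmb*, a glycoprotein gene of lysosome-rich macrophages, was at 171.4 and 174.8 CPM in unstimulated WT and 1556 and 1512 CPM in unstimulated 3xGrk-/- libraries (log2 3.15). With LPS it was at 176.5 and 186.9 against 4050 and 4088 CPM (log2 4.48). The protease gene *Ctsk* had 4 and 9 counts in unstimulated WT and 68 and 46 in unstimulated 3xGrk-/- libraries, and 5 and 5 against 93 and 89 counts with LPS. It passed the filter through the 3xGrk-/- libraries only, which leaves 4 of 5 higher in unstimulated cells, with a median of 1.95. After LPS 5 of 5 are left, with a median of 2.1. *Acp5*, the gene of tartrate-resistant acid phosphatase, was higher in 3xGrk-/- cells by 1.95 without and 2.1 with LPS. The chloride transporter gene *Clcn7* was higher by 0.97 and 1.98. *Ostm1*, the gene of its subunit, was higher in 3xGrk-/- than in WT cells with LPS (0.71) and had a log2 difference of 0.19 without it.

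The MAF family and its BACH partners include relatives that pair with c-MAF or with each other on DNA. Of 6 tested, *Mafg* was higher (log2 0.60) and *Bach1* lower (-0.24) without LPS, and those higher with LPS included *Bach2* (1.36), *Mafg* (0.89) and *Mafk* (0.58). The share called was 16.7% in each direction without LPS and 66.7% higher with it, beside 22.1%, 22.7% and 24.7% of all genes. *Bach2* passed the filter through 1 genotype only at each stimulation, and without it 1 of 5 was higher and 1 lower without LPS and 3 of 5 were higher with LPS.

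Genes linked to c-MAF were tested for 5 of 10 listed at each stimulation, where 22.1% of all genes were higher and 22.7% lower without LPS and 24.7% were higher with it. Without LPS the complement genes *C1qa*, *C1qb* and *C1qc* were lower (log2 -1.61, -1.94 and -1.88), and the mannose receptor gene *Mrc1* was higher (0.79), which made 1 higher and 3 lower of 5 tested. With LPS 5 of 5 tested were higher, *C1qa* by 2.77, *C1qb* by 2.06, *C1qc* by 2.52 and *Mrc1* by 3.16. *C1qb* showed the pattern in each library, with 158.4 and 162.0 CPM in unstimulated WT, 42.6 and 40.6 in unstimulated 3xGrk-/-, 8.89 and 8.20 in LPS-stimulated WT, and 36.4 and 35.0 in LPS-stimulated 3xGrk-/- libraries. The log2 LPS response of *C1qb* was -4.23 in WT and -0.23 in 3xGrk-/- cells. *Il10*, the gene of an anti-inflammatory cytokine, had 0 counts in the 4 unstimulated libraries, 2 and 1 counts in LPS-stimulated WT and 21 and 25 counts in LPS-stimulated 3xGrk-/- libraries. With LPS *Il10* and *Mrc1* passed the filter on low counts through the 3xGrk-/- libraries only, which leaves 3 of 3 higher. Without LPS *F13a1*, tested in place of *Il10*, passed in the same way, which leaves 1 higher and 3 lower of 4.

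Relatives and inhibitors of the C/EBP factors were called in shares near those of all genes, 16.7% of the 6 tested in each direction without and 33.3% with LPS, beside 22.1% and 22.7%, and 24.7% and 24.0%, of all genes. Without LPS *Cebpd* was higher (log2 0.38) and *Cebpe*, known from granulocytes, lower (-1.35). With LPS *Trib3* (2.40) and *Ddit3* (1.42), both stress-response genes, were higher, and *Cebpe* (-2.32) and *Trib1* (-0.41), a Tribbles gene whose product promotes the breakdown of C/EBPα, were lower. The eosinophil and neutrophil markers given above were lower in the same libraries, and their part in the values of *Cebpe* was not tested.

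Among genes linked to C/EBP in myeloid cells, 5 of 9 tested were higher and 2 lower without LPS (median log2 2.19), and 9 of 10 were higher and 1 lower with LPS (median 2.99). Over all genes the shares were 22.1% and 22.7% without and 24.7% and 24.0% with LPS. Without the genes that passed the filter through the 3xGrk-/- libraries only, among them *Ptgs2* without and *Csf3* with LPS, 3 of 7 were higher and 2 lower (median 0.22) without LPS, and 7 of 8 higher and 1 lower (median 2.24) with LPS. In 3xGrk-/- cells the scavenger receptor gene *Msr1* was higher by 2.19 without and 4.06 with LPS. The lysozyme gene *Lyz2* was higher by 2.41 and 4.0, and the acute phase gene *Saa3* by 3.99 and 2.97. *Ptgs2*, the prostaglandin synthase gene with the C/EBP palindrome, was higher by 2.26 and 3.02. *Csf3* (4.18) and *Il6* (1.52) were higher with LPS. *Csf3r* was lower by 0.67 in 3xGrk-/- than in WT cells without LPS and higher by 0.96 with it. *Il12b*, the gene of an interleukin-12 subunit made by mature dendritic cells, was lower in 3xGrk-/- than in WT cells at both stimulations (-0.33 and -2.13).

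BHLHE40 and BHLHE41 repress clock genes, and their list holds clock and E-box genes. Of 13 tested, 2 were higher and 2 lower without LPS (median log2 0.15), and 4 were higher and 2 lower with LPS (median 0.05). These are 15.4% in each direction without LPS, and 30.8% and 15.4% with LPS, against 22.1% and 22.7%, and 24.7% and 24.0%, of all genes, and no result about the list is read from them. Without genes that passed the filter through 1 genotype only, such as *Id3*, 2 of 12 were higher and 1 lower without LPS, and 3 of 11 higher and 2 lower with LPS. *Per2*, a clock repressor gene, was higher at both stimulations (1.38 and 1.19), and *Arntl*, the gene of the clock activator BMAL1, was lower at both (-0.47 and -0.79). *Clock*, the gene of its partner, was higher by 1.04 in 3xGrk-/- than in WT cells with LPS. *Id3*, the gene of an inhibitor of helix-loop-helix proteins, fell by 3.73 without LPS, from 16.4 and 14.2 CPM in WT to 1.35 and 0.868 CPM in 3xGrk-/- libraries.

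Of 11 other macrophage transcription factor genes tested, 5 were higher and 3 lower without LPS (median log2 0.18) and 8 were higher and 2 lower with LPS (median 0.94). The shares called were 45.5% and 27.3%, and 72.7% and 18.2%, beside 22.1% and 22.7%, and 24.7% and 24.0%, of all genes, so the shares called lower were near the background. Without genes that passed the filter through 1 genotype only (*Nr1h3* at both stimulations, *Pparg* and *Klf2* with LPS), 4 of 10 were higher and 3 lower (median 0.11), and 6 of 8 higher and 1 lower (median 0.78). The gene of the liver X receptor alpha, *Nr1h3*, was higher in 3xGrk-/- cells by 1.63 without and 3.07 with LPS, and *Zeb2* by 1.05 and 1.66. *Irf8*, needed for dendritic cell development, was higher without (0.82) and lower with LPS (-0.59). *Spic*, *Pparg* and *Klf4* were lower without LPS (-1.25, -1.21 and -0.43) and higher with it (1.66, 1.5 and 2.09). *Klf2* was lower with LPS (-1.21).

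For each factor, the genes with the most similar pattern were sought among 9131 genes by Pearson's r of log2 CPM over the 8 libraries, which fall into 4 groups so that r mostly compares group means. The closest were *Tapt1*, *Serpinb2* and *Rhobtb1* for *Maf*, *Dtx4*, *Mmp8* and *Ceacam15* for *Mitf*, *Gm49339*, *Cd84* and *Prdx6* for *Tfec*, and *Cfp*, *Hgfac* and *Colgalt1* for *Tfeb*. For *Tfe3* they were *Ppp1r16b*, *Brpf1* and *Zfp704*, for *Cebpa* *Snx8*, *Trio* and *Tm6sf1*, and for *Cebpb* *Tbc1d20*, *Sptlc2* and *Tnfrsf26*. *Mcf2l*, *Maf1* and *Nfkb2* were closest to *Bhlhe40*, and *Macf1*, *Prdx1* and *Cmklr1* to *Bhlhe41*. The r values ran from 0.976 (*Zfp704* with *Tfe3*) to 0.999 (*Gm49339* with *Tfec*). *Serpinb2* was at a mean of 27.7 CPM in unstimulated WT, 175.2 in unstimulated 3xGrk-/-, 64.9 in LPS-stimulated WT and 833.8 in LPS-stimulated 3xGrk-/- cells, the order in which *Maf* stood.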

How the data were processed

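RNA of WT and 3xGrk-/- BMDCs, unstimulated or LPS-stimulated, was measured in 8 libraries, 2 per group. The authors prepared stranded mRNA libraries, aligned the reads to mm10 (GRCm38) with STAR within the snakePipes workflow and counted them per gene with featureCounts. They deposited whole-number counts without normalization in 2 tables; 0 columns lacked a sample. The annotation release and strand setting are not given in the sources used here. GENCODE M21 gave names and exon lengths for 47224 of the 47937 IDs, and 0.0847% of counts lay on IDs without a symbol.

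Counts were analysed in R 4.3.3 with edgeR 4.0.16 (TMM, filterByExpr, estimateDisp, glmQLFit, glmQLFTest; Benjamini-Hochberg over all genes tested, threshold 0.05) and DESeq2 1.42.0 as an alternative. Genotypes were compared within each table, and interaction and LPS responses in 1 fit of all 8 libraries. Scripts were tested on simulated data. An exact permutation test of 2 against 2 libraries reaches at best a two-sided p of 0.333 and was not used. Replicate libraries varied beyond counting noise (median chi-square 1.16 to 1.92 times that expected).

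Members and lists were chosen with earlier results of these data known. Named are the 9 factors, the targeted kinases, per list up to 3 called genes in each direction with the largest change (all for lists of up to 10 genes), the marker genes of the cell type check, and the 3 most similar genes per factor. Alternatives were DESeq2, RLE or library-size scaling, other count filters, edgeR's older (legacy) quasi-likelihood method with robust estimation, fixed coefficients of variation of 0.1 and 0.4, leaving out each library, a replicate block, and other sets of libraries in the fit. A gene with at most 3 counts in each library of a group was given by its counts, not a fold. Protein sequences were not used, and a few listed genes are not reported here by name.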

Additional observations from a re-analysis of the deposited data

Results flagged for a closer look

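In 5 of the 9 factors the genotype difference with LPS departed from that without LPS in the interaction test over the 8 libraries (edgeR, adjusted by Benjamini and Hochberg), as it did in 16.5% of all genes upward and 16.0% downward. *Tfec* had a log2 difference of 1.68 between the genotype effects (adjusted p = 4.26e-07), with all 3xGrk-/- libraries above WT at both stimulations. *Cebpa* had 1.57 (adjusted p = 8.34e-07), and its 3xGrk-/- libraries lay below WT without and above WT with LPS. *Bhlhe40* had -0.41 (adjusted p = 1.56e-05), with a difference without LPS and overlapping libraries with it. *Tfeb* had 0.61 (adjusted p = 0.0321) and *Mitf* 0.52 (adjusted p = 0.0264). The last 2 calls were lost in DESeq2 and on leaving out several single libraries, as given above, and with a coefficient of variation of 0.1 those 2 and the call of *Bhlhe40* (adjusted p = 0.171) were lost.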

How the results depend on the processing

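Of 1062 values recomputed under the alternatives, 954 kept their direction and their side of the threshold (counts: stayed within 1.5 times), 59 lost and 6 gained a call, 39 counts moved further and 4 values changed sign. The 5369 genes called without LPS, 5754 with LPS and 4070 for the interaction changed most with a coefficient of variation of 0.4. That left 448 genes without LPS, with 3 factors higher and 0 lower and 2 CLEAR genes higher and 0 lower. With LPS it left 782 genes, 5 factors higher, and 6 CLEAR genes higher and 0 lower, and for the interaction 72 genes, with 0 factors and 0 CLEAR genes either way. For the LPS response it left 1110 genes with 0 factors higher and 2 lower in WT, and 850 genes with 1 higher and 0 lower in 3xGrk-/- cells. A coefficient of 0.1 left 2905 genes without LPS (CLEAR genes 19 higher and 4 lower) and 2161 for the interaction, where 2 factors were higher, 0 lower and 0 CLEAR genes lower. DESeq2 called 3086 genes without LPS and 2643 for the interaction, where 2 factors were higher and 1 CLEAR gene lower, which was also the count when at least 10 counts were asked of every library. The number of CLEAR genes lower with LPS was 2 with library size only and in 1 fit of all 8 libraries. The cause of these shifts was not tested.

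Leaving out 1 library at a time gave 1 to 2 CLEAR genes lower with LPS and 1 to 3 for the interaction, a log2 difference of *Bhlhe40* with LPS from -0.049 to 0.021, and a WT response of *Cebpb* from -0.36 to 0.76. *Bhlhe40* with LPS was 0.0012 with no filter on low counts, and the WT response of *Cebpb* was -0.049 with library size only, neither of them past the threshold. The *Cebpb* response passed it without replicate 1 of unstimulated WT, where it was 0.76 (adjusted p = 0.0111). With 1 library in a group, that library was assumed to vary like the others. Same-numbered replicates did not deviate together (correlations from -0.0184 to 0.0327), so no pairing was seen. Replicates varied only 1.16 to 1.92 times as much as counting noise (median chi-square), so this check cannot exclude a pairing. With a replicate block, 5292 genes were called without LPS, 5654 with LPS and 3884 for the interaction, and the block changed no call of the 9 factors. Counts of 11 to 22 (*Maf*) and 7 to 10 (*Bhlhe41*) in WT libraries limit the precision of their folds.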
